A study of Mus musculus with 3 samples.

Results

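The genes described here are 31 cell cycle genes, of the 32285 genes in the deposited count tables, followed through every cell lineage of the inflamed mouse colon. They were chosen by symbol, and all 31 were found in the tables. The 13 S-phase genes, used while DNA is copied, were Pcna, Mcm2, Mcm3, Mcm4, Mcm5, Mcm6, Mcm7, Tyms, Rrm1, Rrm2, Pclaf, Dut and Tk1. The 13 G2/M genes, used while chromosomes condense and separate, were Mki67, Top2a, Birc5, Cdk1, Ccna2, Ccnb1, Ccnb2, Cenpa, Cenpf, Ube2c, Nusap1, Cdc20 and Incenp. The other 5 (Stmn1, Tubb5, Hmgb2, H2afz and Tuba1b) are abundant in dividing cells and are also made outside the cycle, and they are called the broadly expressed genes here. A cell was called cycling when it held at least 3 unique molecules (UMIs) over Mki67, Top2a, Birc5, Cdk1 and Ube2c, so the levels of those 5 genes in cycling cells are set by the rule and are no finding.

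The cells came from the large intestine of mice of the strain written C57/BL6J in the labels that had drunk 1.5% dextran sulfate sodium (DSS), a polymer that injures the colonic lining, for 7 days and plain water for 3 more. All mice received 250 µg of antibody into the peritoneum 3 times a week: rat IgG as isotype control (library RatIgG), clone DATK32 (library DATK32) or clone MECA-367 (library MECA367). Each treatment is 1 library, and neither the number of animals behind it nor their age or sex is given in the sources used here. In the labels DATK32 stands for ontamalimab and MECA367 for vedolizumab, whereas from general knowledge DATK32 binds the integrin alpha4beta7 and MECA-367 its vessel ligand MAdCAM-1, so groups are named by clone. With 1 library per group there is no replicate check and no p-value. Shares carry exact Clopper-Pearson 95% intervals and levels exact Poisson 95% intervals in brackets, which cover counting error only. A level is the gene's UMIs per 1000000 UMIs of the same cells (CPM), without regard to gene length, since reads are tags of the 3′ end. A value is called higher or lower where it differs at least 1.5-fold with intervals apart, which is the rule used throughout.

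A dividing cell passes from G1 through S phase to G2 and mitosis. At the entry to S phase E2F transcription factors switch on the genes that form the MCM helicase (Mcm2 to Mcm7), hold the polymerase on DNA (Pcna, with its partner Pclaf) and supply nucleotides (Tyms, Rrm1, Rrm2, Dut, Tk1). Genes of G2 and mitosis follow: the kinase Cdk1 and its cyclins Ccna2, Ccnb1 and Ccnb2, the chromosome untangling enzyme Top2a, the chromosome surface protein Mki67, the centromere proteins Cenpa and Cenpf, the Aurora B partners Birc5 and Incenp, and Ube2c and Cdc20, which serve the ubiquitin ligase that ends mitosis. In the colon the crypt epithelium divides continually, activated lymphocytes and plasmablasts divide in bursts, and mature neutrophils do not divide.

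Cells were kept from 500 UMIs and 200 genes up, and up to 10% mitochondrial UMIs, which left 19109 of 27658 barcodes: 7367 in RatIgG, 5852 in DATK32 and 5890 in MECA367. The median kept cell held 1469, 1524.5 and 1824.5 UMIs in that order, and 27 barcodes occurred in more than 1 library. The labels describe mononuclear cells of the lamina propria sorted as viable and CD45-positive, but epithelial and stromal cells passed into the libraries. Columnar epithelium made up 25.2%, 22.5% and 11.5% of kept cells and stromal cells 24.7%, 23.1% and 26.5%. The CD45 gene Ptprc had a UMI in 66.7% of T cells and in 2.86% of columnar epithelial cells. A squamous epithelium (Krt14, Krt5) was found in RatIgG (231 cells) and DATK32 (179 cells), and MECA367 held 0 such cells. Shares for these non-immune lineages therefore describe cells that a CD45 sort should leave out.

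To show what the genes share in sequence, the 300 bases around their transcription starts were read from the RefSeq promoter table (GRCm38.p6, 250 bases before to 50 after the start), which holds 26 of the 31 genes and 27025 genes in all. On both strands, 3 motifs were searched: the CCAAT box (CCAAT), the cell cycle genes homology region or CHR (with the letters TTTGAA, though TTCGAA was counted as well), and an E2F site (with the letters TTCCCGC, though TTGGCGC was counted as well). A CCAAT box together with a CHR stood in 8 of 11 G2/M windows (72.7%), in 2 of 12 S windows (16.7%) and in 7.70% of all windows. An E2F site stood in 6 of 12 S windows (50%), in 3 of 11 G2/M windows (27.3%) and in 6.93% of all. The CCAAT box alone did not separate the groups: it stood in 9 of 12 S windows (75%) and 9 of 11 G2/M windows (81.8%), against 37.9% of all. A match describes letters only. Of each gene only the first window listed was read, so other starts of a gene were not searched. None of the 3 motifs stood in that window for Birc5 and Nusap1 (G2/M), Dut, Tk1 and Tyms (S) and the broadly expressed Tuba1b. For 3 G2/M genes and 2 S genes whose levels are compared between libraries further on, the 160 bases before the start are printed 5′ to 3′ on the gene's strand, with motif matches on either strand in capitals. Top2a lies at chr11:99024190-99024349 (minus strand), Ube2c at chr2:164769769-164769928 (plus), Cdc20 at chr4:118437344-118437503 (minus), Mcm5 at chr8:75109349-75109508 (plus) and Mcm6 at chr1:128359706-128359865 (minus).
Top2a: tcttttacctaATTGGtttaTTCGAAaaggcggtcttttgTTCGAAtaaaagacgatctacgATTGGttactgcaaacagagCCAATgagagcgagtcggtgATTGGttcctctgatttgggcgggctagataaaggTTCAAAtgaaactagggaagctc
Ube2c: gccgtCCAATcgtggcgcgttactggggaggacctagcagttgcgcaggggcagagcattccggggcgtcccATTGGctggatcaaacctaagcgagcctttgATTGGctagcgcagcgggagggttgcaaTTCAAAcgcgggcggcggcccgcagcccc
Cdc20: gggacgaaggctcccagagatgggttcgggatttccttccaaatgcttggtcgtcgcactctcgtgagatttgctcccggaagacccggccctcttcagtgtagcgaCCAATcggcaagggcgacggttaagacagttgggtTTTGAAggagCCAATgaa
Mcm5: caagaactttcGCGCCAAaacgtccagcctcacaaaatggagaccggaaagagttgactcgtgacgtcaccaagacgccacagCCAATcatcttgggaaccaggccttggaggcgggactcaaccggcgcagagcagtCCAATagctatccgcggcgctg
Mcm6: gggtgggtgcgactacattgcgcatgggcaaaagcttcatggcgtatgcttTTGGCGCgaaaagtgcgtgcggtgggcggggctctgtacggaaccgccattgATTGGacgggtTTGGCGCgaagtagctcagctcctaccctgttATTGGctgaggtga
The Top2a stretch holds 4 CCAAT boxes and 3 CHR matches, Ube2c 3 and 1, and Cdc20 2 and 1, with 0 E2F sites in each. The Mcm5 stretch holds 2 CCAAT boxes and 1 E2F site and the Mcm6 stretch 2 and 2, both with 0 CHR matches.

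Cycling cells numbered 1787 of 19109, or 9.35% [8.94 to 9.77]. Columnar epithelium gave 38.4% of them, a cluster led by the noncoding RNA Gm26917 29.7%, squamous epithelium 7.95%, plasma cells 7.55%, T cells 6.32%, and every other lineage under 3%. Cells just inside the threshold, with 3 UMIs over the 5 genes, numbered 403, and those just outside, with 2, numbered 633. By library the share was 9.43% [8.78 to 10.1] in RatIgG (695 cells), 10.6% [9.78 to 11.4] in DATK32 (618) and 8.05% [7.37 to 8.77] in MECA367 (474). MECA367 lay below both others with intervals apart, at 0.853 times RatIgG, and DATK32 at 1.31 times MECA367, which is under the 1.5-fold rule. At equal depth the shares were 4.52%, 4.70% and 3.15% with every cell thinned to 1000 UMIs. Thinned to 2000 UMIs they were 10.1% [8.99 to 11.2], 9.73% [8.58 to 11.0] and 5.56% [4.72 to 6.49], and MECA367 was then called lower than RatIgG (0.553 times) and DATK32 higher than MECA367 (1.75 times). The cells left at 2000 UMIs differ in make-up. Columnar epithelium gave 1551 of 2933 in RatIgG, 1180 of 2404 in DATK32 and 596 of 2699 in MECA367, and squamous epithelium 198, 154 and 0. The Gm26917-led cluster gave 32, 52 and 60. Columnar shares at that depth overlap, at 9.41%, 9.75% and 8.05%, while plasma and stromal cells were called lower in MECA367 than in RatIgG. The part of the difference that the make-up carries was not tested.

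The share differed widely between lineages. Over the 3 libraries the share of cycling cells was 34.6% [30.0 to 39.5] in squamous epithelium (142 of 410), 30.9% [28.7 to 33.2] in the Gm26917-led cluster (531 of 1717) and 17.8% [16.6 to 19.1] in columnar epithelium (686 of 3850). It was 10.2% [8.59 to 11.9] in plasma cells (135 of 1328) and 5.54% [4.59 to 6.62] in T cells (113 of 2040). Below these stood neutrophils at 4.50% [3.33 to 5.94], NK cells with ILC1 at 2.88% [1.89 to 4.19], monocytes with macrophages at 2.56% [1.83 to 3.49], B cells at 2.34% [1.37 to 3.72], endothelial cells at 1.28% (4 of 313), ILC2 at 0.870% (2 of 230) and stromal cells at 0.825% (39 of 4729). Among 66 mast cells or basophils 0 were cycling, with an exact interval up to 5.44%. Lineages whose intervals overlap are not separated by the rule, and no pair was tested. Such are squamous epithelium and the Gm26917-led cluster, T cells and neutrophils, or the lineages from neutrophils down to B cells.

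**Figure D1:**
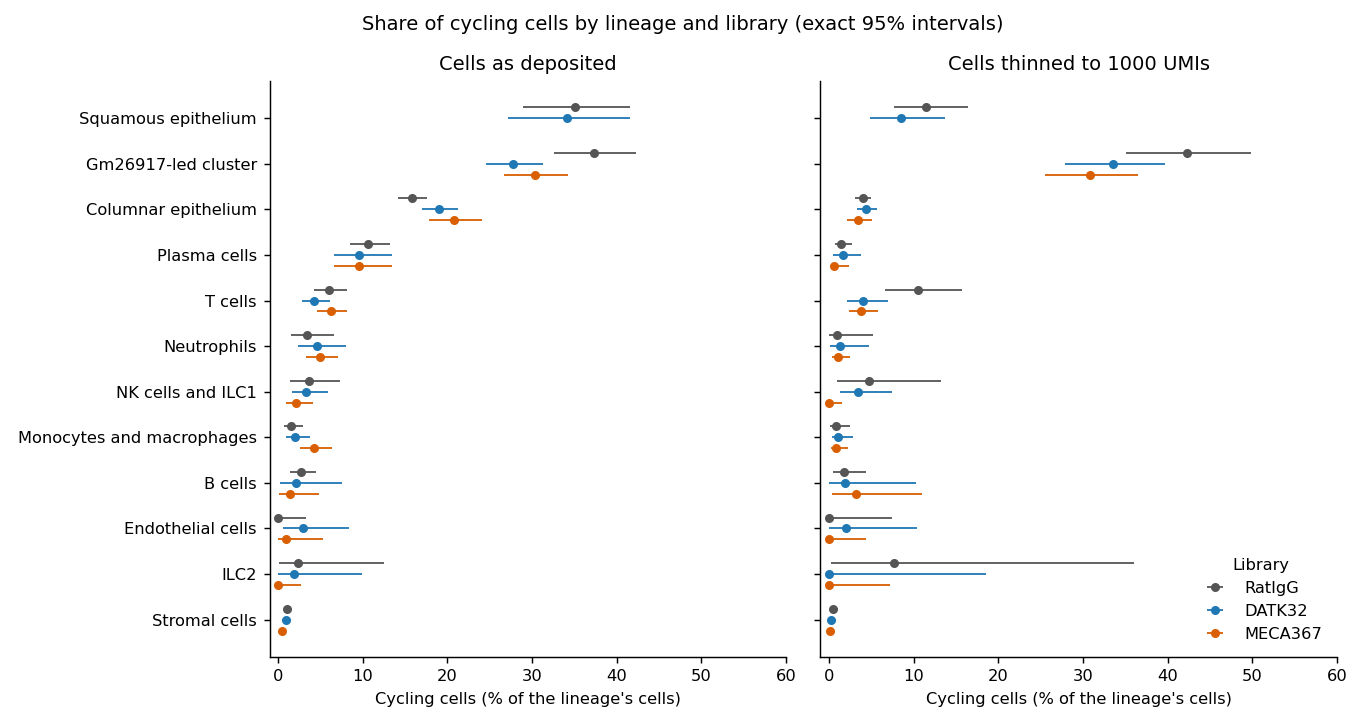
Share of cycling cells (x axis, percent of the lineage's cells) in 12 lineages (y axis) for each library (colours), as points with exact 95% intervals, for cells as deposited (left) and thinned to 1000 UMIs (right). Squamous epithelium and the Gm26917-led cluster stand highest on the left at 34.6% and 30.9% over the 3 libraries, while on the right the Gm26917-led cluster stands alone at 34.7%.

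Lineages were read to different depths, and 3 UMIs are reached more easily in a deeply read cell. The median columnar cell held 4706 UMIs, the median plasma cell 4452 and the median T cell 1022. When each cell was thinned to 1000 UMIs and shallower cells were left out, the share was 10.2% [7.42 to 13.6] in squamous epithelium, 4.02% [3.41 to 4.70] in columnar epithelium and 1.31% [0.764 to 2.09] in plasma cells. It was 5.15% [3.89 to 6.66] of the 1049 T cells that reached this depth, and 34.7% [31.2 to 38.2] of 733 cells in the Gm26917-led cluster. Neutrophils gave 1.15% [0.525 to 2.16], stromal cells 0.219% [0.0882 to 0.451], NK cells with ILC1 1.88%, B cells 2.02% and monocytes with macrophages 0.948%.

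Neutrophils serve as the reference for calls that reflect no division. At 1000 UMIs, plasma cells, NK cells with ILC1, B cells and monocytes with macrophages had intervals that overlap the neutrophil interval, so at that depth the rule does not separate them from neutrophils. An overlap does not show that their calls reflect no division. With the 3 libraries together, T cells, columnar and squamous epithelium and the Gm26917-led cluster lay above the neutrophil interval with intervals apart. Stromal cells lay below it, so it is not a floor shared by all lineages. At 2000 UMIs neutrophils gave 2.72% [1.46 to 4.61], and NK cells with ILC1 also lay above them, at 12.2% [6.82 to 19.6] of the 115 cells left of 904. Plasma cells (4.81% [3.65 to 6.20]) and B cells (9.38% [4.38 to 17.1] of 96) still overlapped them. T cells gave 21.9% [17.2 to 27.2] at that depth, in the 283 cells left of 2040. Columnar epithelium gave 9.29% [8.32 to 10.3], squamous epithelium 25.6% [21.1 to 30.5] and the Gm26917-led cluster 61.8% [53.3 to 69.8]. T cells thus lay above columnar epithelium there, whereas as deposited they lay below it. Neutrophils called cycling held a median of 9019 UMIs against 1661 in other neutrophils, a median doublet score of 0.18 against 0.03, and 46.8% of them carried over 0.5% of their UMIs from 8 epithelial marker genes against 9.63% of the others. More cells over that limit were also seen among cycling B cells (52.9% against 4.94%), stromal cells (38.5% against 3.11%) and monocytes with macrophages (17.9% against 1.89%). With the libraries together, a lower percent of cycling cells was over it in T cells (8.85% against 2.13%) and plasma cells (2.96% against 1.84%). In both it still lay above that of the other cells. By library the T cell values differed: 11.1% against 3.89% in RatIgG, 21.4% against 2.25% in DATK32, and 0% against 0.678% in MECA367. Of the 8 markers, at most 1 was at 0 in the cycling cells of any of these lineages, and their summed level was 1137 CPM in cycling and 677 in other T cells, and 5493 and 2855 in neutrophils. Leaving out cells over this marker limit took the neutrophil share from 3.40%, 4.58% and 4.92% in RatIgG, DATK32 and MECA367 to 1.06%, 0.966% and 3.96%, and the T cell share from 5.98%, 4.30% and 6.23% to 5.56%, 3.49% and 6.27%. The part of such cells in the other shares was not tested.

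**Figure D2:**
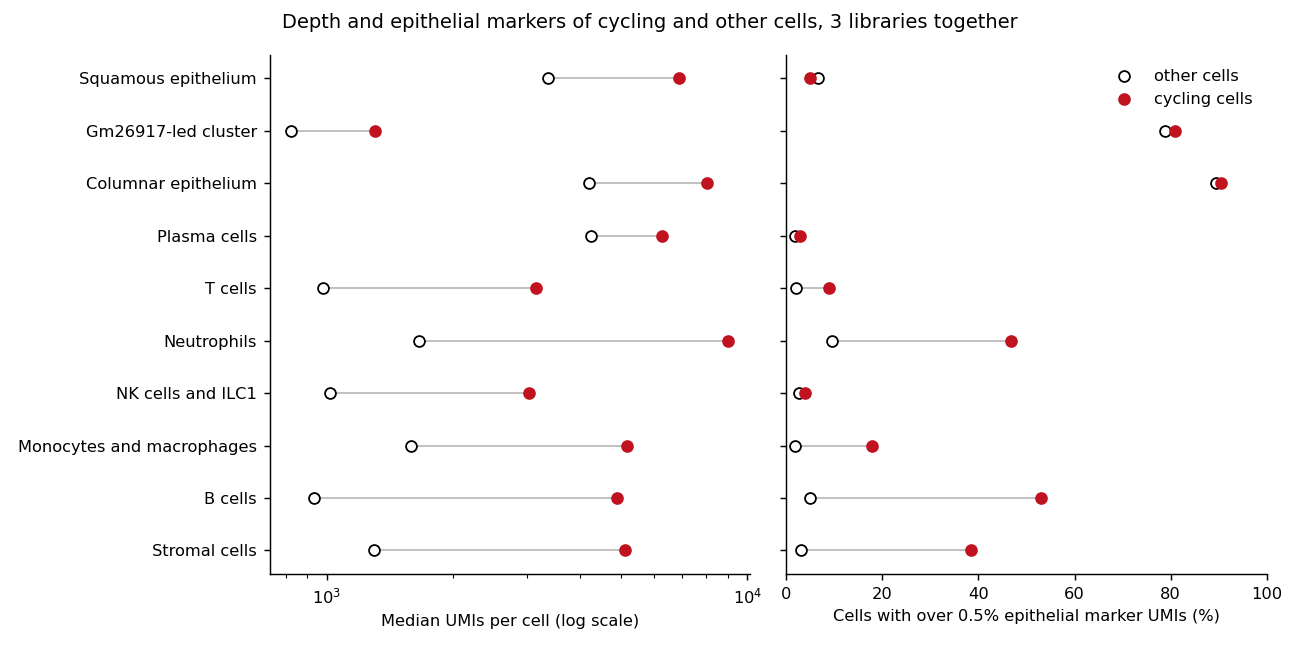
Median UMIs per cell (left, log scale) and percent of cells with over 0.5% of UMIs from epithelial markers (right) in cycling cells (filled) and other cells (open) of 10 lineages, the 3 libraries together. Cycling cells are deeper in each lineage shown. Many cycling cells are over the marker limit in neutrophils (46.8% against 9.63%) and B cells (52.9% against 4.94%). A lower percent is in plasma cells (2.96% against 1.84%) and T cells (8.85% against 2.13%), still above that of the other cells.

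In columnar epithelium, the sheet of absorptive, goblet and progenitor cells that lines the colon, cycling cells made up 15.8% [14.2 to 17.6] in RatIgG (294 of 1856), 19.1% [17.0 to 21.3] in DATK32 (251 of 1317) and 20.8% [17.8 to 24.1] in MECA367 (141 of 677). MECA367 stood above RatIgG with intervals apart, but at 1.31 times it stayed under the rule. Median depth moved with this order, at 3766.5, 5556 and 7396 UMIs. At 1000 UMIs the shares were 4.0% [3.14 to 5.01], 4.36% [3.31 to 5.62] and 3.40% [2.14 to 5.10], with intervals that overlap, so no difference between libraries was detectable at equal depth.

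Within the columnar epithelium most cycling cells (186 of 294 in RatIgG, 162 of 251 in DATK32 and 91 of 141 in MECA367) lay in 1 cluster, led by Clca3b and Edn1 and holding general epithelial markers. Its share was 23.4% [20.5 to 26.5], 30.9% [27.0 to 35.1] and 34.6% [28.9 to 40.7] in RatIgG, DATK32 and MECA367, and 6.46%, 8.79% and 7.03% at 1000 UMIs. Cells with colonocyte markers (Car1, Lypd8) gave 19.2%, 19.3% and 26.4%, or 3.39%, 1.18% and 3.49% thinned. Goblet cells, the mucus makers marked by Muc2 and Spdef, gave 7.99%, 9.44% and 7.32%, or 1.81%, 1.60% and 0 of 272 thinned, where a count of 0 allows up to 1.10% (3 cells) and the exact interval reaches 1.35%. Enteroendocrine cells (Chga, Chgb), the hormone-making cells, held 2 of 71, 1 of 45 and 5 of 36 cycling cells, and 0, 0 and 1 thinned. Over the 3 libraries Muc2 had a UMI in 24% [20.8 to 27.4] of cycling and 49.7% [47.9 to 51.4] of other columnar cells at 1000 UMIs, against 6.48% of stromal cells, which should lack it. The unthinned Muc2 shares were 44.5% and 57.9%. Lgr5, the stem cell receptor, was seen in 8.31% against 4.39% unthinned but in 0.731% against 1.34% at 1000 UMIs, so no difference in Lgr5 is read.

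Squamous epithelium, a layered lining marked by basal keratins that no label mentions, had the highest share of the named lineages: 35.1% [28.9 to 41.6] in RatIgG (81 of 231) and 34.1% [27.2 to 41.5] in DATK32 (61 of 179). At 1000 UMIs it was 11.5% [7.65 to 16.4] and 8.52% [4.85 to 13.7]. Several of the genes stood higher there than in columnar epithelium over the summed libraries, with Top2a at 315 against 126 CPM, Rrm2 at 104 against 20.6 and Pclaf at 168 against 68.8.

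The Gm26917-led cluster had the highest share at equal depth. It gave 37.3% [32.6 to 42.2] in RatIgG (150 of 402), 27.8% [24.5 to 31.2] in DATK32 (197 of 709) and 30.4% [26.7 to 34.2] in MECA367 (184 of 606), and 42.3%, 33.6% and 30.8% at 1000 UMIs. RatIgG stood above DATK32 with intervals apart, at a ratio of 0.745 that is under the rule. Its median cell held only 921 UMIs. It was left without a type name because its 10 leading genes, among them Gm26917, Gpx2, Mki67, Lars2, Rmrp and histone genes, held no marker of a type: Gm26917 stood at 55539 CPM against 1317 in columnar epithelium, and Gm42418, an RNA that overlaps the ribosomal RNA repeat, at 97119 against 11635. Epithelial genes were high in it (Epcam 1200 CPM, Krt8 2713) and Ptprc was low (11.4). The cell cycle lists and the histone genes had been left out of the clustering. The 5 calling genes were all higher than in columnar epithelium: Mki67 was at 734 against 130 CPM, Top2a at 512 against 126, Ube2c at 364 against 81.4, Cdk1 at 132 against 44.3 and Birc5 at 107 against 65.6. Outside the calling genes Incenp stood at 316 against 35.8 CPM, while Ccnb2 (44.0 against 35.2) and Tyms (46.9 against 48.3) were close. At 1000 UMIs its cycling cells exceeded its other cells 1.19-fold in summed S genes and 2.27-fold in the 8 G2/M genes outside the rule, where columnar epithelium gave 3.81-fold and 15.1-fold. Leaving this cluster and the squamous epithelium out, an alternative chosen after the data were seen, gave 6.89%, 7.25% and 5.49% cycling cells in RatIgG, DATK32 and MECA367.

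With the libraries together, T cells were the immune lineage whose share lay above that of neutrophils at 1000 UMIs, joined at 2000 UMIs by NK cells with ILC1. By library at 1000 UMIs, T cells and neutrophils had intervals apart in RatIgG only, where neutrophils gave 0.962% [0.0243 to 5.24]. They overlapped in DATK32 (neutrophils 1.34% [0.163 to 4.76]) and in MECA367 (1.13% [0.414 to 2.43]). NK cells with ILC1 overlapped neutrophils in each library at 2000 UMIs. As deposited, the T cell share was 5.98% [4.22 to 8.18] in RatIgG (36 of 602), 4.30% [2.88 to 6.16] in DATK32 (28 of 651) and 6.23% [4.64 to 8.15] in MECA367 (49 of 787). The intervals of each pair overlap. T cells were shallower in RatIgG, with a median of 771 UMIs against 948 and 1265. Thinned to 1000 UMIs the shares were 10.6% [6.65 to 15.7] of 199, 4.04% [2.10 to 6.95] of 297 and 3.80% [2.37 to 5.75] of 553 cells. MECA367 was then lower than RatIgG by the rule, at a ratio of 0.360, but the thinning leaves out 403 of 602 RatIgG cells against 234 of 787 in MECA367, and cycling T cells are deep (median 3153 against 980 UMIs). The difference is therefore not read as one in division.

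A T cell cluster led by Tnfrsf4, Ctla4 and Icos, genes of activated and regulatory T cells, gave 10.0% [6.22 to 15], 6.54% [3.85 to 10.3] and 11.5% [7.89 to 16.0] in RatIgG, DATK32 and MECA367, and 15.3%, 4.20% and 9.25% at 1000 UMIs. The cluster led by Cd7, Ikzf2 and Ccl5 gave 3.98%, 2.81% and 3.61%, and 7.87%, 3.93% and 1.32% thinned. In the 3 libraries together, Il17a, the cytokine gene of Th17-type cells, had a UMI in 8.11% [3.77 to 14.8] of 111 cycling and 1.49% [0.818 to 2.49] of 938 other T cells at 1000 UMIs, with intervals apart, and in 13.3% against 2.02% unthinned. By library it was 1 of 34, 2 of 28 and 6 of 49 cycling cells in RatIgG, DATK32 and MECA367, and the intervals were apart in MECA367 only. Stromal cells, which should lack Il17a, gave 0.157% thinned. Cd4 (7.21% against 3.62%), Foxp3 of regulatory T cells (7.21% against 5.44%), Cd8a (7.21% against 13.1%) and Gzmb (15.3% against 20.8%) had overlapping intervals at 1000 UMIs, while stromal cells gave 0.188%, 0.251%, 0.219% and 1.19%. Unthinned, these shares were 23.9% against 5.14% for Cd4, 16.8% against 5.76% for Foxp3, 16.8% against 12.8% for Cd8a and 30.1% against 17.96% for Gzmb.

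Plasma cells, the antibody-secreting end of the B lineage, had 10.7% [8.48 to 13.2] cycling cells in RatIgG (75 of 703), 9.62% [6.58 to 13.4] in DATK32 (30 of 312) and 9.58% [6.56 to 13.4] in MECA367 (30 of 313), which overlap. Their median depth was 3354, 5059 and 7007 UMIs, and at 1000 UMIs the shares were 1.46%, 1.62% and 0.649%. At 2000 UMIs they were 6.36% [4.49 to 8.70], 4.71% [2.60 to 7.78] and 1.99% [0.735 to 4.29], where MECA367 was called lower than RatIgG (0.313 times). Jchain, the joining chain of secreted IgA, had a UMI in 135 of 135 cycling plasma cells, in 99.9% of the others and in 7.36% of stromal cells. H2-Aa, a class II antigen presentation gene that mature plasma cells lose, was seen in 17.0% [11.1 to 24.5] of cycling and 10.0% [8.38 to 11.9] of other plasma cells at 1000 UMIs, with overlapping intervals, and in 39.3% against 19.8% unthinned, with stromal cells at 4.01% thinned. In B cells 17 of 726 cells were cycling.

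Monocytes with macrophages had a share of 4.19% [2.61 to 6.34] in MECA367 (21 of 501), against 1.58% [0.727 to 2.99] in RatIgG (9 of 568) and 1.99% [0.912 to 3.74] in DATK32 (9 of 453), with overlapping intervals. Their depth was 2543, 1173.5 and 1583 UMIs in that order, and at 1000 UMIs the shares were 0.887%, 0.847% and 1.13%. Stromal cells gave 1.10% [0.674 to 1.69], 0.886% [0.459 to 1.54] and 0.449% [0.181 to 0.924] in RatIgG, DATK32 and MECA367, and NK cells with ILC1 3.63%, 3.32% and 2.11%, also overlapping. For stromal cells MECA367 was called lower than RatIgG at 2000 UMIs (0.440% against 5.58%, 0.0788 times) and with cells from 1000 UMIs and 500 genes up (0.230 times), where 1602 of 1817 RatIgG cells and 876 of 1558 MECA367 cells fell out at 2000 UMIs.

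The phase of the cycling cells was read from the 13 S genes against the 8 G2/M genes outside the calling rule. More S than G2/M UMIs were found in 52.2% [49.8 to 54.5] of cycling cells, more G2/M in 36.8%, and 11.0% were equal. Counting all 26 genes instead, which includes the calling genes, 20.2% had more S UMIs. The lineages differed. T cells had more S UMIs in 71.7% [62.4 to 79.8] of cycling cells and squamous epithelium in 67.6% [59.2 to 75.2]. Columnar epithelium (57.7% [53.9 to 61.5]) and plasma cells (57.8% [49.0 to 66.2]) were lower, and the Gm26917-led cluster was lowest at 33.1% [29.2 to 37.3]. The T cell interval stands apart from the columnar one and the Gm26917-led interval from all 4 others. These shares compare a set of 13 genes with a set of 8 and so do not give the length of a phase. They describe cells at deposited depth, which differed between lineages. Cycling cells held a median of 3153 UMIs in T cells, 8016.5 in columnar epithelium and 1301 in the Gm26917-led cluster. Over all kept cells of RatIgG the S-leaning share fell from 55.3% to 41.4% at 1000 UMIs. The order of lineages is therefore not read as one at equal depth.

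Between libraries the S-leaning share was 55.3% [51.5 to 59.0] in RatIgG, 51.0% [47.0 to 55] in DATK32 and 49.2% [44.6 to 53.8] in MECA367, with overlapping intervals. In T cells it was 58.3% [40.8 to 74.5] (21 of 36), 75% [55.1 to 89.3] (21 of 28) and 79.6% [65.7 to 89.8] (39 of 49), which also overlap, and in columnar epithelium 59.2%, 55.8% and 58.2%. Of the cells not called cycling, 7.03% held at least 3 UMIs over the S genes, and 38.8% did in squamous and 18.6% in columnar epithelium. In columnar epithelium that share was 15.7%, 16.5% and 31.2% in RatIgG, DATK32 and MECA367, in the order of the depth given above.

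**Figure D3:**
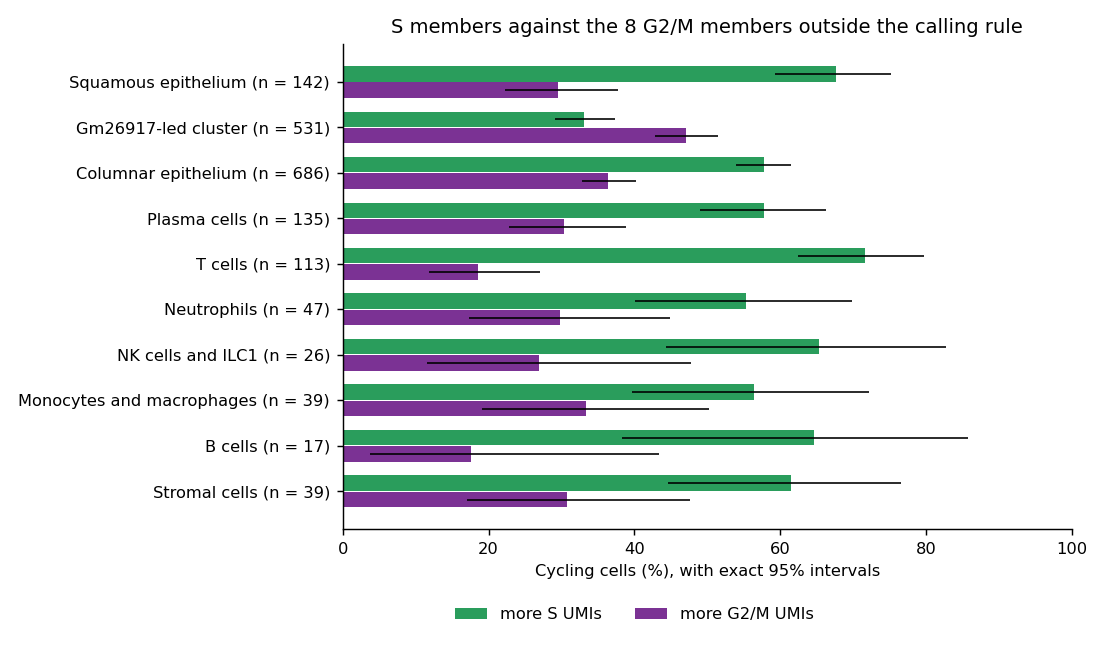
Percent of cycling cells (x axis) with more UMIs over the 13 S genes (green) or over the 8 G2/M genes outside the calling rule (purple) in 10 lineages (y axis), the 3 libraries together, with exact 95% intervals and the number of cycling cells. With cells at their deposited depth, which differs between lineages, T cells lean furthest to S (71.7%). The Gm26917-led cluster is the only lineage shown where G2/M (47.1%) exceeds S (33.1%).

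Genes outside the calling rule moved with the calls. At 1000 UMIs, cycling T cells exceeded other T cells 6.49-fold in summed S genes and 4.62-fold in the 8 remaining G2/M genes, with all 13 and all 8 above 1. Plasma cells gave 6.02-fold and 11.4-fold, and columnar epithelium 3.81-fold and 15.1-fold. Pclaf separated T cells most among the S genes, with UMIs in 46.8% of cycling and 0.959% of other T cells (676 against 10.7 CPM). In columnar epithelium Nusap1, a spindle protein, stood at 101 against 2.29 CPM and Ccnb1 at 101 against 4.26. Since the same cells gave the call and these counts, this describes the cells and is no test.

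Cenpa was the exception in lymphocytes. This centromere histone stood at 396 CPM in cycling and 229 in other T cells, a fold of 1.73, against 127 and 11.8 CPM in columnar epithelium. Summed over all cells it was highest in NK cells with ILC1 (281 CPM), T cells (237) and B cells (157) and stood at 42.5 in columnar epithelium, so a Cenpa count alone did not mark a cycling lymphocyte. Pcna, which also serves DNA repair, was likewise spread out, with 239 CPM in T cells, 216 in NK cells with ILC1, 204 in endothelial cells and 206 in squamous epithelium, against 90.6 in stromal cells. Hmgb2, a chromatin protein, stood at 1594 CPM in T cells and 236 in stromal cells. The G2/M gene Ccnb1 covered a wider range, from 72.3 CPM in squamous epithelium and 25.6 in columnar epithelium to 2.91 in stromal cells.

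**Figure D4:**
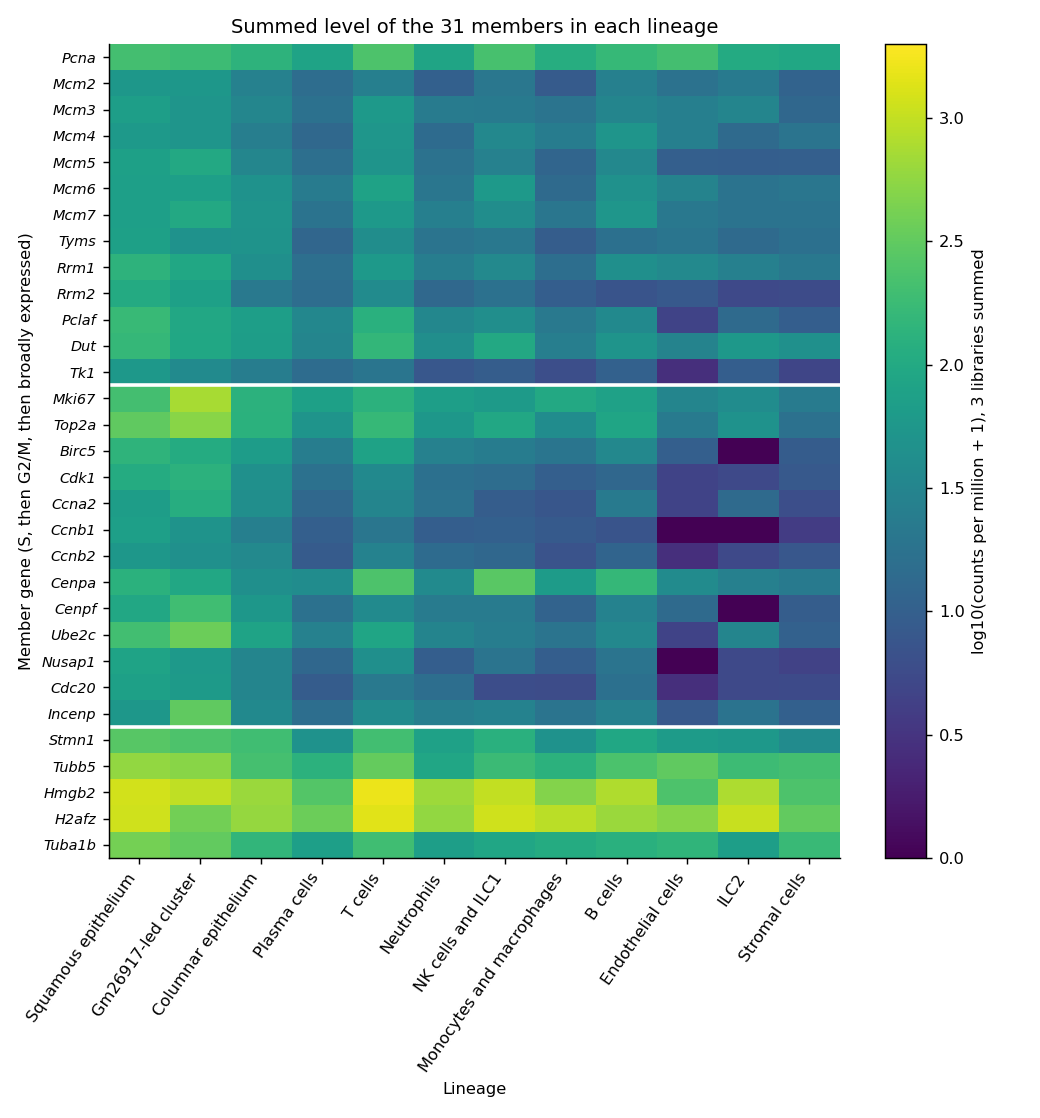
Level of each of the 31 genes (rows, S genes above, then G2/M, then broadly expressed genes) in 12 lineages (columns), as log10 of CPM + 1 with the 3 libraries summed. G2/M genes are brightest in squamous epithelium and the Gm26917-led cluster (Mki67 at 734 CPM), and Cenpa is bright in T cells, NK cells with ILC1 and B cells.

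Other genes of the cycle, from lists of 42 replication and G1/S genes, 55 mitosis genes and 16 brakes on the cycle, followed the calls. In columnar epithelium 40 of 42 replication genes and 54 of 54 mitosis genes with a ratio were above 1 in cycling cells at 1000 UMIs, with median folds of 3.67 and 13.7, and 7 of 15 brakes were. In T cells it was 31 of 32, 35 of 36 and 7 of 13. Over all lineages, among the most abundant of these in cycling cells were the G1 cyclin Ccnd1 (205 CPM against 69.4 in other cells), the chromatin protein Hmgb1 (782 against 344) and the condensin subunit Smc4 (255 against 56.6). The antiproliferative Btg1 stood at 457 against 1004 CPM and the stress gene Gadd45b at 115 against 379.

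Comparing libraries, the count of each gene was summed per library and lineage and given as CPM of that lineage. DATK32 against RatIgG and MECA367 against RatIgG share the RatIgG library, and the comparisons with MECA367 share that library. Over all kept cells, 0 of 31 genes differed between DATK32 and RatIgG by the rule, where 1.53% of 14605 genes were higher and 2.07% lower. MECA367 had 13 of 31 lower than RatIgG, where 10.6% of genes were lower, and 0 higher, where 8.88% were. DATK32 had 12 of 31 higher than MECA367, where 9.22% were, and 0 lower, where 9.11% were. The 12 were 11 of the 13 G2/M genes and Mcm5. The median log2 ratio of the 31 genes was 0.06, -0.51 and 0.50 in these comparisons, and that of all genes -0.01, -0.12 and 0.09.

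The G2/M genes carried most of this. Top2a stood at 124 [119 to 130] CPM in RatIgG, 129 [124 to 135] in DATK32 and 76.8 [72.8 to 80.9] in MECA367. Ccnb1 stood at 19.5, 25.4 and 11.8 CPM, Nusap1 at 30.9, 28.4 and 12.9, and Cdc20 at 24.4, 27.9 and 13.7. MECA367 is the low library in each of these, with its interval apart from both others. Pcna (131, 126 and 129 CPM) and Cenpa (58.6, 61.4 and 67.2) were not called. Summed, the 13 G2/M genes stood at 682, 758 and 491 CPM and the 13 S genes at 579, 567 and 475. The make-up of the libraries also differed, and MECA367 held the fewest columnar and 0 squamous cells. The Gm26917-led cluster had the highest summed G2/M level (2778.5 CPM against 745 in columnar epithelium). It made up 5.46% of kept cells in RatIgG, 12.1% in DATK32 and 10.3% in MECA367, so more in MECA367 than in RatIgG. The share of the difference that the make-up carries was not tested. With squamous epithelium and the Gm26917-led cluster left out, 9 genes were lower in MECA367 than in RatIgG and 8 higher in DATK32 than in MECA367, all 8 of them G2/M genes.

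Within columnar epithelium fewer genes were called than over all kept cells. DATK32 had 6 of 31 genes higher than MECA367, where 2.18% of 11217 genes were: Top2a, Cdk1, Ccna2, Cenpf, Nusap1 and Incenp, all G2/M genes, and 0 lower, where 1.26% were. Top2a stood at 132 [124 to 140] CPM in RatIgG, 144 [136 to 153] in DATK32 and 88.2 [80.3 to 96.6] in MECA367, and Cdk1 at 45.7, 50.3 and 32.7. MECA367 had 3 genes lower than RatIgG (Nusap1, Incenp and the tubulin Tuba1b), where 2.97% were, and 0 higher, where 1.46% were. DATK32 had 0 called against RatIgG in either direction, where 0.713% were higher and 0.972% lower. Nusap1 stood at 36.3, 34.6 and 16.9 CPM. The S genes stood level, with sums of 623, 627 and 600 CPM and 0 of 13 called in any comparison. With each cell weighted alike, 0 genes were called between DATK32 and MECA367 and Incenp turned to a log2 ratio of -0.092 from 0.71.

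In plasma cells every called gene was lower in an antibody library than in RatIgG. MECA367 had 14 of 31 genes lower than RatIgG, where 9.62% of 7161 genes were: the S genes Mcm3, Mcm5, Mcm6, Mcm7, Rrm1 and Pclaf, the G2/M genes Mki67, Top2a, Ccna2, Cenpf, Ube2c, Nusap1 and Cdc20, and Tuba1b. DATK32 had 5 lower than RatIgG (Top2a, Ccna2, Cenpf, Ube2c and Nusap1), where 1.96% were. Against RatIgG 0 genes were higher in DATK32, where 1.15% were, or in MECA367, where 2.81% were. Top2a stood at 73.5 [63.7 to 84.4] CPM in RatIgG, 46.1 [36.8 to 57.0] in DATK32 and 27.8 [21.6 to 35.2] in MECA367, 3 intervals apart. Mcm5 stood at 18.7, 20.6 and 6.54 CPM and Mcm6 at 27.8, 27.7 and 12.7, so for the MCM helicase genes MECA367 alone was low. DATK32 had 3 genes higher than MECA367 (Mcm5, Mcm6 and Top2a), where 4.06% were, and 0 lower, where 2.19% were. With scaling factors from the trimmed mean of M-values (TMM) the 14 became 7 and the 5 became 3, and at a mitochondrial limit of 5% they became 6 and 1. The shares of cycling plasma cells overlapped as deposited and at 1000 UMIs but not at 2000 UMIs between MECA367 and RatIgG, as given above.

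In T cells MECA367 stood highest for several S genes. It had 4 of 31 genes higher than RatIgG (Pclaf, Dut, Birc5 and Ube2c), where 3.14% of 6113 genes were, and 0 lower, where 4.83% were. DATK32 had 7 lower than MECA367, where 2.29% were (Pcna, Rrm2, Pclaf, Dut, Birc5, Cdk1 and Ube2c), and 0 higher, where 3.53% were. Against RatIgG DATK32 had 2 lower (Mki67 and Top2a), where 1.15% were, and 0 higher, where 0.573% were. Dut, the enzyme that keeps uracil out of DNA, stood at 86.2 [64.5 to 113] CPM in RatIgG, 96.3 [76.7 to 119] in DATK32 and 215 [191 to 240] in MECA367. MECA367 was the high library for Dut, and the other two overlapped. Birc5 stood at 40.6, 65.0 and 105 CPM and Rrm2 at 29.3, 17.4 and 54.95. Top2a was not ordered that way, at 192, 123 and 175 CPM. Summed S genes stood at 840, 732 and 1224 CPM, where DATK32 was lower than MECA367 (log2 ratio -0.74). Cycling T cells were deeper in MECA367 (median 5019 UMIs) than in RatIgG (1822), and a deep cell weighs more in a sum. With each cell weighted alike, 1 gene was higher in MECA367 than in RatIgG, and Pclaf and Ube2c turned to log2 ratios of -0.23 and -0.73 from 0.92 and 0.69.

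In the other lineages fewer genes had enough counts. Stromal cells had 25 of 31 measured (at least 50 counts over the libraries), of which 6 were lower in MECA367 than in RatIgG, where 8.83% of genes were, and 5 higher in DATK32 than in MECA367, where 6.05% were. Cenpa was the 1 gene lower in DATK32 than in RatIgG, where 2.15% were. Their summed G2/M genes stood at 157, 156 and 84.6 CPM in RatIgG, DATK32 and MECA367, with markers of epithelium in 38.5% of the few cycling cells as given above. The Gm26917-led cluster had 8 of 31 lower in MECA367 than in RatIgG, where 6.72% were, including Birc5 (152, 118 and 66.7 CPM) and Incenp (410, 344 and 226), while Mki67 stood at 699, 746 and 745. There 1 gene (Tubb5) was lower in DATK32 than in RatIgG, where 2.28% were, and Birc5 and Incenp were higher in DATK32 than in MECA367, where 1.65% were. Neutrophils had 8 of 22 measured genes lower in MECA367, where 20.9% were, 1 lower in DATK32, where 2.27% were, and 3 higher in DATK32 than in MECA367, where 10.6% were. With TMM scaling, the median log2 ratio of all genes in neutrophils moved from -0.41 to 0.11 for MECA367 against RatIgG, in plasma cells from -0.23 to 0.02 and in T cells from -0.07 to 0.10. Monocytes with macrophages had 1 of 17 higher in MECA367 than in RatIgG (Top2a, 48.1 against 20.5 CPM), where 2.81% were, and 1 lower (Tuba1b), where 5.73% were. Mcm3 was higher there in DATK32 than in RatIgG, where 1.26% were, and Mcm7 in DATK32 than in MECA367, where 4.07% were. Of 11 genes measured in NK cells with ILC1, Cenpa was higher in MECA367 than in RatIgG, where 2.04% were, and Tuba1b lower, where 2.96% were. Of 5 measured in endothelial cells, Pcna was higher in MECA367 than in RatIgG, where 3.97% were. Tuba1b, which encodes an alpha-tubulin, was lower in MECA367 than in RatIgG in every lineage compared except T cells and endothelial cells.

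**Figure D5:**
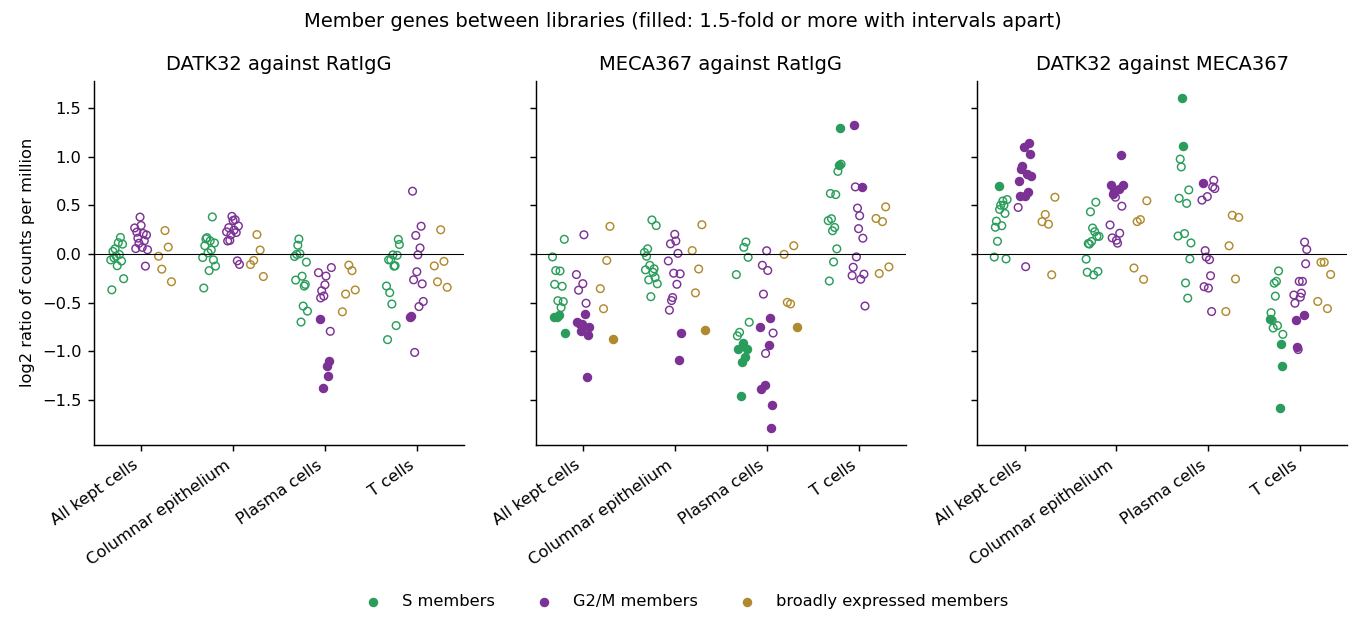
log2 ratio of CPM (y axis) of each of the 31 genes between libraries (panels) in all kept cells and 3 lineages (x axis), coloured by S, G2/M or broadly expressed genes; filled points differ at least 1.5-fold with intervals apart. For DATK32 against MECA367, filled G2/M points lie above 0 in all kept cells (11 of 13) and columnar epithelium (6 of 13, of which Incenp turned to -0.092 with each cell weighted alike), and the 7 filled T cell points lie below 0.

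The further lists of cycle genes were compared in the same way. Over all kept cells, of the 55 mitosis genes 27 were lower and 2 higher in MECA367 than in RatIgG (median log2 ratio -0.62, all genes -0.12), where 10.6% and 8.88% of all genes were, and 34 were higher and 1 lower in DATK32 than in MECA367 (median 0.71), where 9.22% and 9.11% were. Anln, a scaffold of the cleavage furrow, stood at 16.2 CPM in DATK32 and 6.59 in MECA367, and the kinase Plk1 at 18.9 and 8.44. Lmnb1, a lamina gene that many resting cells make, went the other way (105 and 184). Of the 42 replication and G1/S genes 6 were lower in MECA367 than in RatIgG and 8 higher in DATK32 than in MECA367, nearer to the 10.6% and 9.22% of all genes. Between DATK32 and RatIgG 2 mitosis genes were called, Bub1 and Gtse1, both higher in DATK32, where 1.53% of all genes were. Of 15 measured brakes 3 were higher and 2 lower in MECA367 than in RatIgG, counts too small to read against the 8.88% and 10.6% of all genes, with Gadd45b at 415 against 175 CPM. In columnar epithelium 12 of 55 mitosis genes and 1 of 42 replication genes were higher in DATK32 than in MECA367, where 2.18% of all genes were. In plasma cells 11 of 27 measured mitosis genes were lower in MECA367 and 7 of 27 in DATK32 than in RatIgG, where 9.62% and 1.96% were, with Cks1b, a Cdk subunit, at 46.8 CPM in RatIgG and 13.6 in DATK32. In T cells 3 of 21 replication genes and 2 of 27 mitosis genes were lower in DATK32 than in MECA367, where 2.29% were, among them the primase subunit Prim1 (9.28 against 27.5 CPM).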

How the data were processed

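Sequencing used the 10x Genomics Next GEM 3′ v3.1 chemistry, per the labels' protocols, and the UMI counts per gene and cell were made by the authors with Cell Ranger 6.0.2 on genome build mm10, per the submitters' processing notes. The deposited libraries held 30359331 UMIs (RatIgG), 28030376 (DATK32) and 27846540 (MECA367), with 500 or more in each barcode, and cells over 10% mitochondrial UMIs were left out here. Cells were clustered with scanpy 1.11.5 (2000 variable genes without cell cycle and histone genes, 30 components, 15 neighbours, resolution 1) and named from marker lists, with naming thresholds set after the clusters were seen. The doublet caller marked 1 cell in all, so it had not worked and doublets were kept. Counts were summed per library and lineage. Genes needed 50 counts over the libraries and lineages 100 cells in each to be compared, with a prior count of 1. The rule for higher and lower, the share intervals and the thinning were tested on simulated counts, and the naming of lineages was not. Genes outside the 31 were named as the highest and lowest ratios of each list and comparison, or the most abundant. The 31 genes, the lists and the lineages were chosen with earlier results of these data known. Alternatives changed the depth, filters, scaling, resolution, lineage rule and doublet treatment.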

Additional observations from a re-analysis of the deposited data

Results flagged for a closer look

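Of the 31 genes, 5 were called in opposite directions in different lineages under the same contrast, on the log2 ratio of CPM. With 1 library per group these differences between lineages were not tested. The share of all measured genes called in opposite directions in this way was not counted. The 5 are therefore not read as particular to the cell cycle genes. For MECA367 against RatIgG, Pclaf, the Pcna partner, stood at 0.92 in T cells and -0.97 in plasma cells. Top2a stood at 1.17 in monocytes with macrophages, -1.39 in plasma cells and -1.52 in stromal cells. Birc5 stood at 1.32 in T cells and -1.18 in the Gm26917-led cluster. Ube2c stood at 0.69 in T cells, -0.66 in plasma cells, -0.74 in the Gm26917-led cluster and -1.61 in stromal cells.

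For DATK32 against MECA367, Birc5 stood at -0.68 in T cells, 1.21 in neutrophils, 0.81 in the Gm26917-led cluster and 1.61 in stromal cells. Cdk1 stood at -0.95 in T cells and 0.62 in columnar epithelium. Ube2c stood at -0.63 in T cells and 1.52 in stromal cells. T cells stand on 1 side of each of these oppositions except that of Top2a. With each cell weighted alike, Pclaf and Ube2c in T cells turned to log2 ratios of -0.23 and -0.73 for MECA367 against RatIgG. In stromal cells of MECA367, Birc5 and Ube2c stood at only 4.15 and 4.45 CPM. The contrasts share the MECA367 library.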

How the results depend on the processing

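With 1 library per group no replicate could be left out, and no paired analysis was possible because the labels give no replicate numbers. Depth is the main limit: at 1000 UMIs 2453, 1771 and 1193 cells fall out in RatIgG, DATK32 and MECA367. Of the ratios of cycling shares, 375 stayed on their side of the rule and 9 became called. Ratios that were not called could cross 1: in columnar epithelium MECA367 against RatIgG went from 1.31 to 0.850 at 1000 and 0.856 at 2000 UMIs, and in monocytes with macrophages DATK32 against RatIgG went from 1.25 to 0.215 at 2000 UMIs. Thinned to 1000 UMIs, MECA367 against RatIgG in T cells was 0.360 (1.04 as reported), and 0.520 with cells from 1000 UMIs and 500 genes up. Thinned to 2000 UMIs, over all kept cells MECA367 against RatIgG was 0.553 (0.853) and DATK32 against MECA367 1.75 (1.31), in plasma cells MECA367 against RatIgG was 0.313 (0.898) and in stromal cells 0.0788 (0.408), the latter 0.230 with cells from 1000 UMIs and 500 genes up. In monocytes with macrophages the ratio for MECA367 was 6.09 at a mitochondrial limit of 5% and 2.30 at 25% (2.65). The share of S-leaning cycling cells at 1000 UMIs was 41.4%, 39.6% and 35.8% in RatIgG, DATK32 and MECA367 (55.3%, 51.0% and 49.2%).

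Counts of called genes stayed within 1.5 times in 61 cases and moved in 21. In T cells the 2 genes lower in DATK32 than in RatIgG became 0 with TMM factors, 9 with cells weighted alike and 0 with lineages from each cell's own markers. The 4 higher in MECA367 became 7 with TMM, 1 weighted alike, 7 at the 5% limit and 1 at resolution 2.0. The 7 lower in DATK32 than in MECA367 became 2 weighted alike, 14 at the 5% limit, 4 by own markers and 11 with the highest doublet scores removed. In plasma cells the 5 lower in DATK32 became 3 with TMM and 1 at the 5% limit, the 14 lower in MECA367 became 7 and 6, and the 3 higher in DATK32 than in MECA367 became 5 by own markers. Over all kept cells the 13 lower in MECA367 became 6 weighted alike. In columnar epithelium the 3 lower in MECA367 became 1 weighted alike and 6 at the 5% limit, and the 6 higher in DATK32 than in MECA367 became 0 and, by own markers, 2. Weighted alike, the log2 ratio for MECA367 against RatIgG in T cells turned to -0.23 for Pclaf and -0.73 for Ube2c, and for DATK32 against MECA367 in columnar epithelium to -0.092 for Incenp. At the 5% limit Stmn1 in neutrophils turned to 0.31 from -0.76 for MECA367 against RatIgG. The cause was not tested. Not run were ratios against endothelial RatIgG cells (0 cycling), the Gm26917-led cluster at the 5% limit and by own markers, where it did not form, and NK cells with ILC1 thinned in MECA367 (0 cycling).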

Other observations

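Btg1 is an antiproliferative gene from the list of brakes on the cycle. It was lower in MECA367 than in RatIgG in each lineage compared except NK cells with ILC1 (1978 against 2695 CPM). Of all genes, 4.83% were lower in T cells, 5.73% in monocytes with macrophages, 2.97% in columnar epithelium and 8.83% in stromal cells. Over all kept cells Btg1 was not called lower. In T cells it stood at 1327 against 2679 CPM, in monocytes with macrophages at 1976.5 against 2980.44 CPM, in columnar epithelium at 288 against 461 CPM and in stromal cells at 467 against 867 CPM. DATK32 lay between them in T cells (1773 CPM), columnar epithelium (345 CPM) and stromal cells (542 CPM). Gadd45b, a gene of the stress response, went the other way in columnar epithelium (121 CPM in MECA367 against 78.3 in RatIgG) and in stromal cells (1070.46 against 391 CPM), while its 230 against 156 CPM in plasma cells was not called. Btg1 was singled out after its values were seen, each group is 1 library, and no alternative was run for either gene.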
